A study of Mus musculus with 6 samples.

Results

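The cytosolic ribosomal protein genes were followed one by one in HT22 cells, an immortalized line derived from mouse hippocampal neurons. The members were picked by symbol: Rps and Rpl genes numbered as proteins of the small (40S) or large (60S) subunit, with Rplp0, Rplp1, Rplp2, Rpsa, Fau and the variants with a symbol ending in l or l1. This gave 86 of the 21878 genes in the table, of which 32 encode small subunit proteins, 46 encode large subunit proteins and 8 are paralogs of a main gene. The control group held 3 libraries of HT22 cells without aluminum, and the Al group held 3 libraries of HT22 cells given 120 µM aluminum maltolate. A treatment of 24 h is stated for the cell groups in general, without a separate time for the sequenced cells. The methods describe both medium alone and maltol as control conditions, and which of them was sequenced is not given in the sources used here. All 6 libraries are inputs of an m6A immunoprecipitation (MeRIP) experiment, so they measure RNA before the antibody step. The study calls the 3 libraries of a group biological replicates. All cells were of one line, and the genotype was the same in both groups.

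A eukaryotic ribosome carries 1 copy of most of these proteins around its ribosomal RNA, and cells make the proteins in near-equal numbers. Free ribosomal proteins are unstable or bind regulators such as Mdm2, the ligase that degrades p53. Many of the mRNAs start with a C followed by a run of pyrimidines, the 5′ terminal oligopyrimidine (TOP) tract, through which mTOR and Larp1 control their translation and stability. Paralogs such as Rpl39l, Rpl10l and Rpl3l replace or accompany the main protein in certain tissues, among them testis and striated muscle.

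The start-site sequences of several members are shown first because the pyrimidine run at the start is a feature that most of these genes are known to share and that their choice by symbol did not use. Each line covers 15 bases before and 15 bases after the annotated RefSeq start (GRCm38.p6), printed 5′ to 3′ on the gene's strand, with the longest run of C and T near the start in capitals.
Rps6, chr4:86857353-86857382, minus strand: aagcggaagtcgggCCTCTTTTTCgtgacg
Rps27, chr3:90213634-90213663, minus strand: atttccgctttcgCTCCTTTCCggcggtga
Fau, chr19:6057932-6057961, plus strand: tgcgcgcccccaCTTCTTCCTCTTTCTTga
Rpl15, chr14:18270972-18271001, minus strand: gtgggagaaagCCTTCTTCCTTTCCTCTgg
Rpl38, chr11:114668565-114668594, plus strand: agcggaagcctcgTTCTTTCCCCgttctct
Rps2, chr17:24720048-24720077, plus strand: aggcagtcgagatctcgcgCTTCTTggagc
Rpl39l, chr16:10170213-10170242, plus strand: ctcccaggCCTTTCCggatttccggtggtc
Rpl22l1, chr3:28805493-28805522, plus strand: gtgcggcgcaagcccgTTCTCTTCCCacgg
Rpl7l1, chr17:46782642-46782671, minus strand: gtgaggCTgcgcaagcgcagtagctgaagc

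RefSeq start windows were matched by symbol for 66 of the 86 members, giving 78 windows of 300 bases because some genes have several starts. A run of at least 7 C or T that touched positions -10 to +10 was present in 37 of the 78 windows (47.4%) and in 19.7% of all 32851 mouse windows. The first transcribed base was C in 30.8% of the members' windows against 16.3% of all windows. CCGGAAG, the core of an Ets factor motif, stood on either strand in 34.6% of the members' windows against 8.86% of all. TATAAA was at 10.3% against 13.6% and the E-box CACGTG at 10.3% against 7.15%. Annotated starts can be some bases off the real ones, and a letter match is only a description of the window.

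Levels are given as FPKM, fragments scaled to gene length and to the counted reads of the library, as deposited. The counted reads behind the FPKM were recovered from the values and ranged from 38059492 to 44556768 in control and from 21125631 to 26670978 in Al, so depth moved with the group. Summed FPKM also differed, at 361083 to 385447 in control and 428696 to 479075 in Al. Fold changes were therefore taken on log2(FPKM divided by a size factor, plus 0.1), with the libraries aligned on the median ratio over genes with a mean of at least 1 FPKM. Calls needed P under 0.05 in limma, before adjustment, and an absolute log2 fold change over 0.58. As to the labelled cell type, 2 of 9 neuron markers (Tubb3 and Syn1) had a mean of at least 1 FPKM, whereas Rbfox3, Map2, Snap25, Nefl and Nefm were under 0.1 in all libraries. The summed FPKM of the 9 was 13.7 to 13.9 in control and 5.36 to 6.91 in Al. Of 5 fibroblast markers, 4 reached 1 FPKM, with sums of 2010 to 3190 in control and 2470 to 3450 in Al, and their part in the results was not tested.

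The ribosomal protein mRNAs rose in Al almost without exception. Of 85 members tested, 83 were called higher and 0 lower, against a background of 26.2% called higher and 24.4% called lower among the 12889 genes tested. All 83 calls also held at a Benjamini-Hochberg adjusted P under 0.05, where the background was 25.5%. After size factors, the 3 Al values lay above all 3 control values in 84 of 85 members, against 35.1% of all genes, and Rpl3l was the exception. On deposited FPKM the groups overlapped for Rpl3l, Rpl39l, Rps27l and Rpl22l1. The member left untested is Rpl10l, the retrogene of Rpl10 used in male germ cells, which was listed at 0 in all 6 libraries. Among other genes with a mean of at least 100 FPKM over the 6 libraries, 61.9% of 533 were called higher. Their median log2 fold change was 0.80, which became 0.07 after quantile normalization. This floor does not match the members' levels: of 78 subunit genes, 7 had a control mean under 100 FPKM and 65 had at least 300.

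The 32 small subunit genes were all called higher, with a median log2 fold change of 1.63 and a range of 1.40 to 2.79. All 46 large subunit genes were called higher too, with a median of 1.69 and a range of 1.01 to 2.06. Over both subunits together the fold change ran from 2.01 to 6.93, with a median of 3.13. All genes tested had a median log2 fold change of 0.03 and quartiles of -0.62 and 0.69, against quartiles of 1.51 and 1.76 for the members. Members thus moved within a narrow band, and the few that left it are described gene by gene further on.

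**Figure D1:**
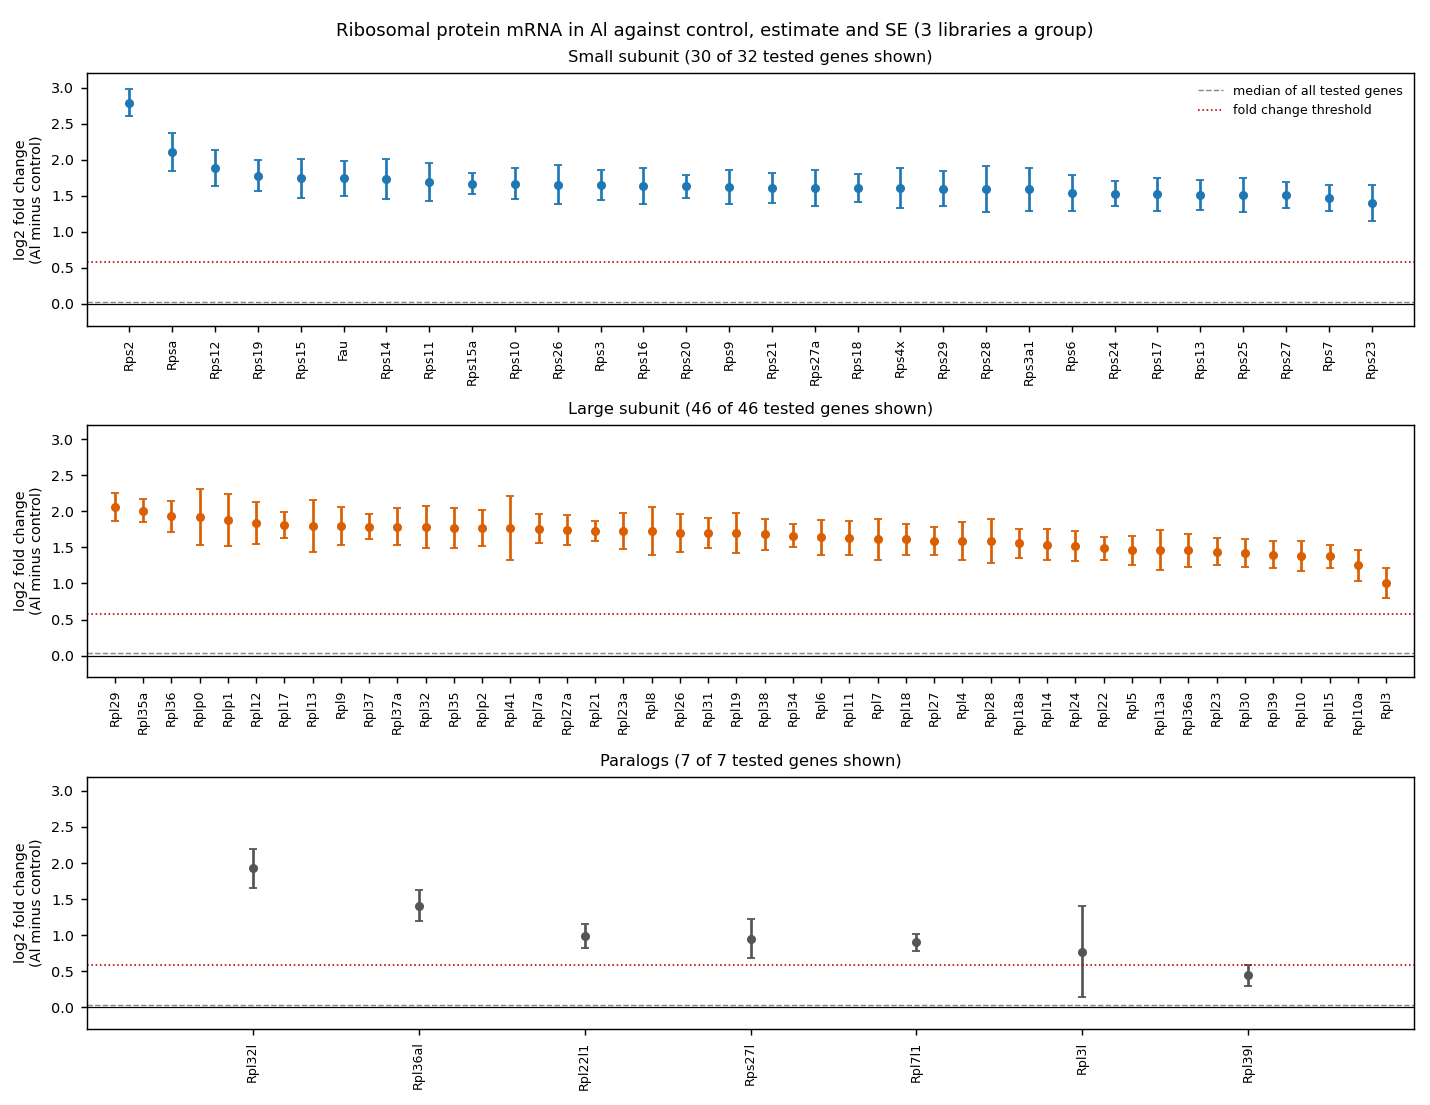
Log2 fold change (Al minus control, limma estimate with its SE, 3 libraries a group) of each tested member, ordered by size within the small subunit (30 of 32 genes shown), the large subunit (46 genes) and the paralogs (7 genes). The dotted line is the threshold of 0.58 and the dashed line the median of all tested genes, 0.03; Rps2 at 2.79 stands highest and Rpl39l at 0.44 lowest.

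The way the libraries were aligned set how large these values were. On FPKM as deposited the medians were 1.14 for the small and 1.20 for the large subunit, on TPM 0.84 and 0.90, while the median of all genes stood at -0.43 and -0.72 under the same scalings. Relative to the median of all genes, the members' median was 1.60 with size factors, 1.58 as deposited and 1.57 as TPM, so these 3 scalings differed by a common shift. Calls fell to 79 members on deposited FPKM and 78 on TPM, where 14.0% and 9.30% of all genes were called higher and 42.0% and 53.1% lower. Quantile normalization, which gives every library the same distribution of values, lowered the members' median to 0.40 and left 25 called, with 22.2% of all genes called higher and 24.2% lower. Under it, all 13 subunit genes with a control mean under 300 FPKM were called and 8 of the 65 above it, a split at a level chosen after the values were seen. Rpl3, the core protein near the catalytic centre, turned to -0.17 under quantile normalization.

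**Figure D2:**
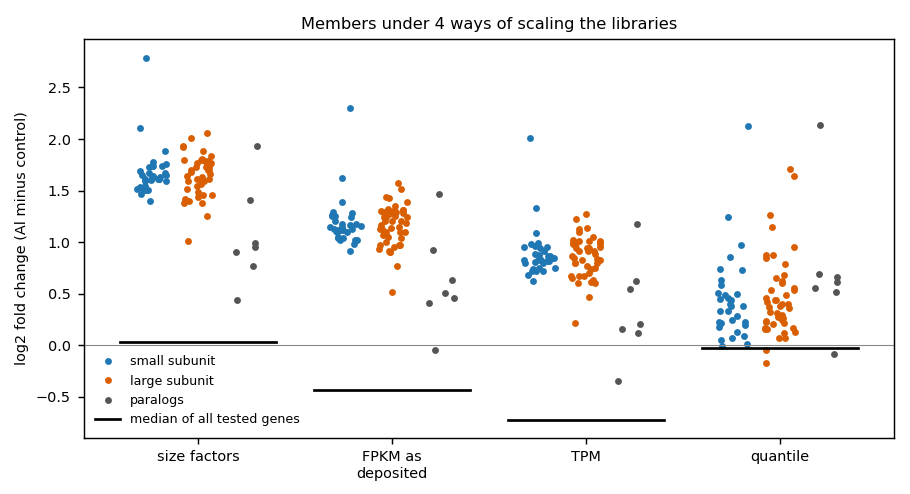
Log2 fold change of each tested member (points, coloured by subunit or paralog) under size factors, FPKM as deposited, TPM and quantile normalization, with the median of all tested genes as a black bar. With the first 3 the members keep their spread and shift together with the bar (0.03, -0.43 and -0.72), and with quantile normalization they move down to a median of 0.40, with the bar at -0.03.

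As a share of each library, the members made up 14.1%, 15.4% and 16.3% of summed FPKM in the control libraries. In the Al libraries they made up 28.5%, 29.3% and 27.2%. The groups did not overlap, and the mean difference was 13.1 percentage points. In recovered reads, which weigh long genes more, the share went from 4.78% ± 0.52 (SD, n = 3) in control to 10.9% ± 1.01 (SD, n = 3) in Al. The absolute number of reads on members overlapped between the groups, from 1604746 to 2338669 in control and from 2045946 to 3003061 in Al, since the Al libraries were shallower. FPKM gives shares of the RNA sequenced, so more ribosomal protein mRNA per cell and less of the other RNA cannot be told apart. Among the 50 genes with the highest FPKM, 23, 27 and 28 were members in control and 34, 34 and 36 in Al.

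The balance between the subunits stayed within a few percent. The mean log2 FPKM of the small subunit genes minus that of the large subunit genes was 0.135, 0.122 and 0.135 in control and 0.172, 0.160 and 0.153 in Al. All 3 Al values were higher, by 0.0308 on average. The summed FPKM moved the other way: the small subunit sum divided by the large subunit sum was 0.645 ± 0.00458 (SD, n = 3) in control and 0.633 ± 0.00597 (SD, n = 3) in Al, without overlap. The sum is led by the most abundant genes. The mean log2 counts every gene alike, Rps2 at a log2 fold change of 2.79 among them. The median log2 fold changes, 1.63 for the small and 1.69 for the large subunit, pointed the same way as the sums. The direction of the balance thus depended on the measure, and the part of Rps2 in it was not tested. None of these measures was put to a test, since all rest on the genes chosen.

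**Figure D3:**
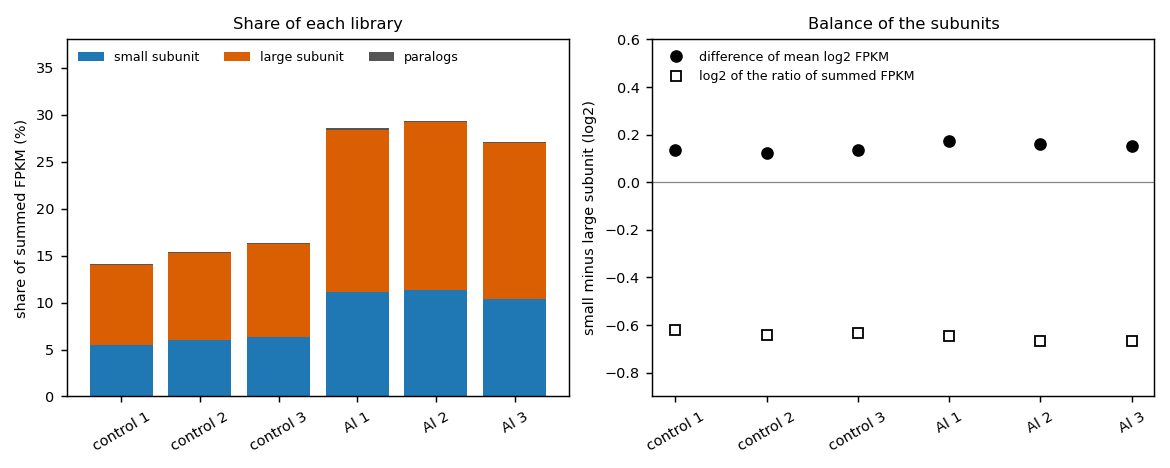
Left, share of summed FPKM (%) held by small subunit, large subunit and paralog genes in each library, rising from between 14.1% and 16.3% in control to between 27.2% and 29.3% in Al. Right, small minus large subunit on the log2 scale per library, as the difference of mean log2 FPKM (filled circles, near 0.13 to 0.17) and as the log2 ratio of summed FPKM (open squares, between -0.62 and -0.67).

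Rps2 stood apart within the small subunit. It encodes the protein at the mRNA entry channel of the 40S subunit and lies at chr17:24718116-24721929 on the plus strand (GENCODE M21, GRCm38). Its FPKM was 77.2, 81.3 and 98.6 in control and 425, 491 and 359 in Al. Every Al value was more than 3 times the highest control value, and the log2 fold change was 2.79 (SE 0.19, adjusted P = 1.28e-05). To see which members left the common shift, the libraries were also aligned on the median ratio of the ribosomal protein genes themselves. Under that scaling Rps2 was the only member called above the others, at 1.14 (SE 0.12, adjusted P = 8.09e-08), where 2.79% of all genes were called above. Rps2 has 27 annotated pseudogenes with a transcript that matches at least 50% of its coding sequence at 95% identity or more. Its level per length was also low for a subunit gene, and the part of reads shared with the copies was not tested.

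Rpsa, the laminin receptor precursor that binds at the back of the small subunit, came next. Its FPKM went from 688, 723 and 866 in control to 2430, 2530 and 2050 in Al. The log2 fold change was 2.11 (SE 0.26), and against the other ribosomal proteins Rpsa was 0.46 higher (SE 0.08, adjusted P = 3.71e-05), short of the fold threshold. Rps12, a protein of the 40S beak, followed at 1.88 (SE 0.25), with 657, 761 and 858 FPKM in control and 2090, 2090 and 1770 in Al. Rps19, a protein of the 40S head often mutated in Diamond-Blackfan anaemia, was at 1.78 (SE 0.22). These 4 genes had the largest changes of the small subunit.

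At the other end of the small subunit, Rps23 at the decoding centre rose least, by 1.40 (SE 0.25). Its FPKM was 803, 937 and 989 in control and 1810, 1740 and 1580 in Al. Rps7, one of the proteins that bind Mdm2, changed by 1.47 (SE 0.18), Rps13 by 1.51 (SE 0.21) and Rps27, a zinc-finger protein, by 1.51 (SE 0.18). The control and Al values of all 4 were fully apart. Leaving out Rps2 and Rpsa, the whole small subunit thus lay between 1.40 and 1.88.

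Rps28 and Rps3a1 were among the most abundant small subunit mRNAs in control. Rps28, a short protein at the mRNA exit channel, had 1630, 1620 and 1750 FPKM in control and 3720, 3800 and 3250 in Al. Rps3a1 went from 1190, 1350 and 1490 to 3010, 3030 and 2580, a log2 fold change of 1.59 (SE 0.30). Rps6, the substrate of the S6 kinases downstream of mTOR, had 717, 850 and 957 FPKM in control and 1830, 1820 and 1570 in Al, a log2 fold change of 1.54 (SE 0.25).

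In the large subunit the largest changes were those of Rpl29, Rpl35a, Rpl36 and Rplp0. Rpl29, a heparin-binding protein, had 22.8, 25.6 and 32.5 FPKM in control and 85.4, 86.6 and 67.4 in Al, a log2 fold change of 2.06 (SE 0.19). Rpl35a, another gene of Diamond-Blackfan anaemia, went from 26.1, 34.3 and 32.8 to 98.2, 90.7 and 78.6, a change of 2.01 (SE 0.16). Both had low FPKM for core genes in all libraries, and they have 28 and 14 pseudogene copies by the rule used for Rps2. Rpl36 rose by 1.93 (SE 0.22) from 388, 431 and 482 FPKM to 1250, 1270 and 1010. None of these 3 was called against the ribosomal protein median, at 0.41 for Rpl29, 0.36 for Rpl35a and 0.28 for Rpl36.

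Rpl3 rose least of all core genes. It helps to shape the peptidyl transferase centre and lies at chr15:80077791-80091868 on the minus strand. Its FPKM was 585, 678 and 655 in control and 923, 990 and 833 in Al, without overlap. The log2 fold change was 1.01 (SE 0.21, adjusted P = 0.00273), and against the ribosomal protein median Rpl3 lay at -0.64 (SE 0.09, adjusted P = 3.08e-06). It was the only core gene called below that median, where 79.1% of all tested genes were called below. On deposited FPKM and on TPM, Rpl3 stood at 0.52 and 0.22 and was no longer called. Next came Rpl10a at 1.25 (SE 0.21), a protein of the L1 stalk that was at 0.47 and not called on TPM, Rpl10 at 1.38 (SE 0.21), which joins late in 60S maturation, and Rpl15 at 1.38 (SE 0.16). Rpl10a went from 528, 645 and 678 FPKM to 1090, 1030 and 1010, and it was at -0.40 (SE 0.09) against the ribosomal protein median.

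Rpl41, the smallest ribosomal protein, had the highest FPKM of all members. Its values were 2550, 3240 and 3230 in control and 8170, 7650 and 6130 in Al, a log2 fold change of 1.77 (SE 0.44). Rpl13 followed the same course, from 1800, 1920 and 2080 FPKM to 5070, 5230 and 4110. The P stalk, the flexible arm that recruits translation factors, had a median of 1.86 over 4 genes, all called, against 26.2% of all genes. Rplp0, its base, went from 2000, 2240 and 2550 FPKM to 5890, 6770 and 5600, with a log2 fold change of 1.92 (SE 0.39). Rplp1 was at 1.88 (SE 0.36), Rpl12 at the foot of the stalk at 1.84 (SE 0.29) and Rplp2 at 1.77 (SE 0.25). Under quantile normalization the median of the 4 was 0.28, below the 0.40 of all members, and 0 of the 4 were called, against 22.2% of all genes.

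**Figure D4:**
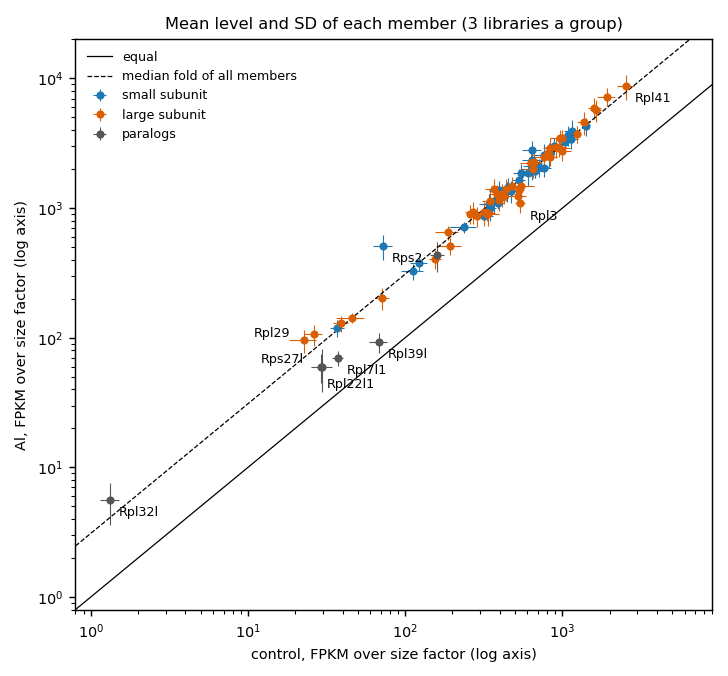
Mean level (FPKM over size factor) in Al against control for each member on log axes, with SD bars over 3 libraries, the line of equal levels and a dashed line at the members' median log2 fold change of 1.63. Rpl3l, at most 0.504 on this scale, lies off the axes and Rpl10l is at 0; most points follow the dashed line, Rps2 lies above it, and Rpl39l, Rpl7l1, Rps27l, Rpl22l1 and Rpl3 lie below.

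The other functional groups lay closer to the rest. Rpl5 and Rpl11, which bind 5S ribosomal RNA and inhibit Mdm2 when free, rose by 1.46 (SE 0.20) and 1.63 (SE 0.23). Rpl5 went from 319, 402 and 459 FPKM to 758, 796 and 730, and Rpl11 from 406, 521 and 539 to 1140, 1180 and 905. The proteins made as fusions with ubiquitin or a ubiquitin-like domain moved alike, Fau by 1.74 (SE 0.24) and Rps27a by 1.61 (SE 0.25). The 7 genes at the exit of the peptide tunnel had a median of 1.70, the 5 at the mRNA entry and decoding sites 1.74 and the 3 of the 40S beak 1.67. All 78 core genes were called higher, against 26.2% of all genes. The 18 genes mutated in Diamond-Blackfan anaemia had a median of 1.61 and a range of 1.38 to 2.01. The 9 genes of proteins known to bind Mdm2 had a median of 1.51 and a range of 0.95 to 1.73, the lowest being the paralog Rps27l, which was not called on deposited FPKM or TPM.

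Among the paralogs, 5 of 7 tested were called higher, against 26.2% of all genes, and the median was 0.95. On deposited FPKM and on TPM 2 of the 7 were called, Rpl36al and Rpl32l, against 14.0% and 9.30% of all genes, with medians of 0.51 and 0.21. After quantile normalization the paralogs' median was 0.61, above the 0.38 and 0.39 of the subunits, and 4 of the 7 were called, against 22.2% of all genes. Rpl39l and Rpl3l were the only tested members that were not called. Against the ribosomal protein median, below which 79.1% of all genes were called, 4 paralogs and Rpl3 were called below: Rpl39l at -1.21, Rpl7l1 at -0.74, Rps27l at -0.70 and Rpl22l1 at -0.65. Without the second Al library Rpl22l1 lost that call, and without the third Rps27l lost it. The paralogs together held 0.675% ± 0.0214 (SD, n = 3) of the members' FPKM in control and 0.461% ± 0.0397 (SD, n = 3) in Al.

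Rpl39l, a paralog of Rpl39 with its main use in male germ cells, lies at chr16:10170226-10174911 on the plus strand. Its FPKM was 69.5, 82.6 and 88.9 in control and 87.7, 71.9 and 73.4 in Al, so the deposited values overlapped. After size factors the Al values were 110, 88.6 and 79.0 against 58.9, 68.6 and 76.0, a log2 fold change of 0.44 (SE 0.15, adjusted P = 0.0295) that did not reach the fold threshold. On deposited FPKM, TPM and quantile-normalized values its change was -0.05, -0.35 and -0.08. Rpl39 itself, at the tunnel exit, went from 369, 415 and 412 to 810, 777 and 661 FPKM. Rpl39l thus equalled 18.8%, 19.9% and 21.6% of Rpl39 in control and 10.8%, 9.25% and 11.1% in Al. A factor applied to a whole library leaves this ratio as it is, and the log2 ratio differed by -0.95 (SE 0.10). Quantile normalization changes it, and the difference was then -0.44. The exact two-sided permutation test gave P = 0.1, the smallest that 3 against 3 libraries allow, and 0.233 after adjustment over 7 pairs.

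Rpl7l1, which joins early precursors of the 60S subunit, showed the same order. Its FPKM was 41.3, 43.6 and 47.4 in control and 63.0, 58.0 and 55.4 in Al, an increase of 0.90 (SE 0.12). Rpl7 went from 917, 1170 and 1300 to 2470, 2620 and 2240. The paralog went from 4.50%, 3.72% and 3.65% of Rpl7 to 2.55%, 2.22% and 2.47%, a log2 difference of -0.71 (SE 0.11) without overlap (exact permutation P = 0.1, adjusted 0.233). After quantile normalization the direction turned, to 0.40.

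Rps27l, a known p53 target, varied between the Al libraries. It had 30.8, 33.6 and 40.9 FPKM in control and 60.8, 55.4 and 32.7 in Al, where the third library lay inside the control range. Rps27l equalled 7.19%, 7.51% and 8.16% of Rps27 in control and 6.55%, 5.84% and 3.61% in Al. The log2 difference of -0.56 (SE 0.27; exact permutation P = 0.1, adjusted 0.233) became -0.30 when the third Al library was left out and turned to 0.23 after quantile normalization. Rpl22l1, whose mRNA is known to be repressed by the Rpl22 protein, had 31.9, 37.7 and 34.7 FPKM in control and 59.1, 36.3 and 56.0 in Al. It equalled 42.7%, 42.7% and 37.8% of Rpl22 in control and 31.8%, 20.6% and 38% in Al, so the groups overlapped (log2 difference -0.49, SE 0.27, exact permutation P = 0.2). Without the second Al library the difference was -0.24, and after quantile normalization it was -0.19.

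**Figure D5:**
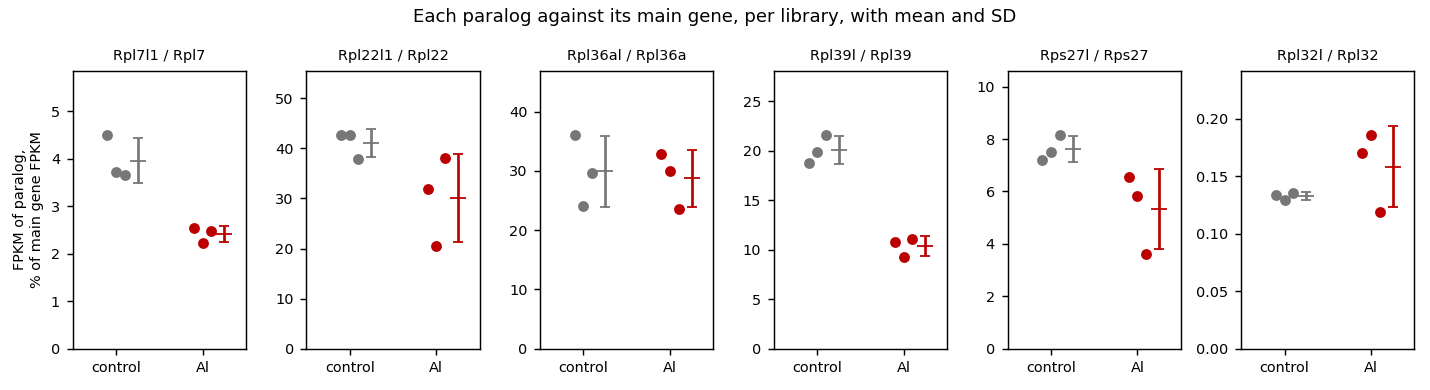
FPKM of each paralog as a percentage of its main gene in each library (points), with mean and SD of the 3 control and 3 Al libraries; each panel has its own axis from 0. Control and Al libraries are apart for Rpl7l1, Rpl39l and Rps27l, and overlap for Rpl22l1, Rpl36al and Rpl32l.

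Rpl36al, a retrocopy of Rpl36a, equalled 36.1%, 24.1% and 29.6% of its main gene in control and 32.9%, 30% and 23.5% in Al (log2 difference -0.05, SE 0.22, exact permutation P = 0.8, and -0.20 to 0.09 with single libraries left out). After quantile normalization the difference was 0.40. Rpl36al itself rose by 1.41 (SE 0.21), from 181, 180 and 209 FPKM to 417, 383 and 288. Rpl32l is a processed pseudogene in GENCODE M21 and a protein-coding gene in RefSeq, and it had 1.38, 1.56 and 1.78 FPKM in control and 5.0, 5.80 and 3.12 in Al. It was called higher at 1.93 (SE 0.27), and it stayed between 0.119% and 0.186% of Rpl32 (log2 difference 0.18, SE 0.19, exact permutation P = 0.4, and 0.05 to 0.37 with single libraries left out), so reads from Rpl32 that land on it cannot be told apart. That difference was -0.18 with a pseudocount of 1 and 1.91 after quantile normalization. Rpl3l, the striated muscle form of Rpl3, rested on 2, 2 and 14 reads in control and 1, 4 and 29 reads in Al. Its log2 fold change of 0.77 (SE 0.63, adjusted P = 0.31) was within the spread between libraries.

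How far a paralog's reads can be told from those of its main gene depends on how much the sequences differ. Over the coding sequence, Rpl36al was 87.9% identical to Rpl36a, Rpl39l 85.3% to Rpl39, Rpl10l 84.8% to Rpl10, Rps27l 76.1% to Rps27, Rpl3l 74.4% to Rpl3, Rpl22l1 70.2% to Rpl22 and Rpl7l1 62.6% to Rpl7. The lines that follow give, for 3 pairs of equal coding length, the 30 coding bases within 1 exon that differ most (GENCODE M21, GRCm38, on the gene's strand), with the differing bases in capitals.
Rpl39l, chr16:10174425-10174454, plus strand: cCaagCgGagacaTtggagACgaacCaaAT
Rpl39, chrX:37082712-37082741, minus strand: cTaagAgAagacaCtggagGAgaacGaaGC
Rps27l, chr9:66946831-66946860, plus strand: ctGgcTaGAgatctGTtAcaCccTtcCTTG
Rps27, chr3:90213272-90213301, minus strand: ctCgcAaAGgatctCCtTcaTccCtcTCCA
Rpl36al, chr12:69183104-69183133, minus strand: gtCaacgtAccAaaaacccgAAggacTttc
Rpl36a, chrX:134586078-134586107, plus strand: gtGaacgtGccTaaaacccgCCggacAttc
The stretches differ at 9, 13 and 6 of 30 bases.

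Features that the choice by symbol did not use were set beside the fold changes of the 78 core genes, those of both subunits without the paralogs. Spearman's correlation with the log2 fold change was 0.42 for the GC content of the coding sequence, 0.15 for the number of pseudogene copies, -0.05 for the length behind the FPKM, 0.16 for the control FPKM and 0.05 for the number of snoRNA genes inside the gene. These are descriptions across 78 genes that share the same 6 libraries. The 17 core genes with at least 10 pseudogene copies had a median of 1.76, those with 5 to 9 copies 1.60 and those with fewer 1.65. The 30 with a snoRNA gene inside their coordinates on the same strand had a median of 1.67 and the 48 others 1.62. The 32 core genes with a run of at least 7 pyrimidines at an annotated start had a median of 1.66, and the 26 with a window but no such run had 1.62. The medians of these classes lay between 1.60 and 1.76.

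FPKM levels between members need care, because the length behind the FPKM ranged from 346 to 5136 bases over the core genes. It was 5136 for Rps15a, 3446 for Rps20, 3432 for Rps24 and 3002 for Rpl21, whose coding sequences are far shorter. Of 7 core genes with a control mean under 100 FPKM, Rps15a (43.8), Rpl21 (45.9), Rpl22 (84.9) and Rpl29 (27.0) had lengths of 5136, 3002, 2343 and 1842 and 6, 58, 1 and 28 pseudogene copies. The other 3 were Rpl35a (31.1), Rpl34 (54.1) and Rps2 (85.7), with lengths of 598, 689 and 999 and with 14, 5 and 27 pseudogene copies. A gene's length is the same in every library and cancels in its own fold change. Among all tested genes that are no members, short genes had higher fold changes: the median was 0.43 under 1000 bases (35.5% called higher), 0.19 from 1000 to under 2000, 0.06 from 2000 to under 4000 and -0.16 at 4000 or more (19.8% called higher). Among those with a mean of at least 100 FPKM, the median was 0.80 both under 1000 bases and from 1000 bases up, with 63.0% and 61.5% called higher and 22.5% and 2.03% called lower. After quantile normalization these medians were 0.03 and 0.07. The core genes had a median length of 808, and the part of length in their fold changes was not tested.

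Other mRNAs with a TOP tract were read from a list written beside the members. Of 20 such genes 18 were called higher and 0 lower, with a median of 1.24, where 26.2% of all genes were called higher and 24.4% lower. Rack1, a scaffold on the 40S subunit, was at 1.58 (SE 0.30). The smallest called changes were Eef1d at 0.61 (SE 0.16) and Eif3a at 0.72 (SE 0.10), both translation factors. Nap1l1, a histone chaperone, at 0.54 (SE 0.11) and Vim, the intermediate filament vimentin, at 0.37 (SE 0.24) were not called. On TPM 7 of the 20 were called higher, against 9.30% of all genes, and with quantile normalization 3, against 22.2%.

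Of 15 regulators of ribosomal protein synthesis, 4 (26.7%) were called higher, close to the 26.2% of all genes, and 0 lower. Mdm2, the p53 ligase, rose by 1.82 (SE 0.14), Myc by 1.07 (SE 0.19), its partner Max by 1.01 (SE 0.12) and Tsc1, an inhibitor of mTOR signalling, by 0.59 (SE 0.10). Tsc1 was not called without the second control library (0.52) or without the third Al library (0.57). The 11 not called included mTOR itself (Mtor) at -0.26 (SE 0.09), its partner Rptor at -0.40 (SE 0.11), the TOP-binding protein Larp1 at -0.38 (SE 0.10), the translation repressors Eif4ebp1 at -0.57 (SE 0.15) and Eif4ebp2 at -0.48 (SE 0.11), and Trp53 at 0.56 (SE 0.13). Larp4 (0.46), Rps6kb1 and Rps6kb2 (both 0.52), Tsc2 (0.39) and Rheb (-0.05) completed the list. On deposited FPKM 2 of the 15 were called higher and 5 lower, where 14.0% of all genes were called higher and 42.0% lower.

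Of 12 chaperones and importers that carry new ribosomal proteins, 4 (33.3%) were called higher, against 26.2% of all genes, and 0 lower. Grwd1, the chaperone of Rpl3, rose by 1.97 (SE 0.13), where Rpl3 itself was at 1.01. Tsr2, which carries Rps26, rose by 0.93 (SE 0.12), Ipo5, an importin, by 0.92 (SE 0.16) and Pdcd2, the chaperone of Rps2, by 0.84 (SE 0.10). Heatr3, which carries Rpl5, at -0.20 (SE 0.08), Aamp, the chaperone of Rpl10, at -0.24 (SE 0.10) and Tnpo1 at -0.29 (SE 0.09) were not called. Bccip (-0.16), Ltv1 (0.13), Ipo7 (0.08), Pdcd2l (0.41) and Nap1l1 (0.54) were not called either. On deposited FPKM 1 of the 12 was called higher and 4 lower, against the same 14.0% and 42.0%.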

How the data were processed

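RNA was measured in 6 input libraries of HT22 cells, 3 control and 3 Al. The treated libraries carry another letter in the labels and were taken as Al because the series text names no other group. The study's own gene table, of which a shortened sheet was used, heads its columns C1 to C3 and Al1 to Al3, and for 1999 of 1999 genes each column equals the deposited library of the same number to the sheet's 6 significant digits. The authors deposited FPKM per gene and library without further scaling between libraries. The sources differ on how these were made: the methods name Trimmomatic, SortMeRNA and HISAT2 on GRCm38, and the submitters' processing notes name fastp, HISAT2, HTSeq and GRCm39. The annotation behind the FPKM is not given in the sources used here. The immunoprecipitated libraries and m6A peaks were not analysed here.

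Counted reads were recovered from the FPKM, in which 1 read is worth a fixed step given by gene length and depth, for 17687 of the 17688 genes above 0 (tolerance 0.001). A value of 0 allows up to 3 reads, for counting error only. Genes with a mean of at least 0.1 FPKM were tested with limma 3.58.1 in R 4.3.3 (lmFit and eBayes with trend) on log2(FPKM over size factor + 0.1), a scale that understates changes of low genes. Size factors were medians of ratios over genes with a mean of at least 1 FPKM. They were 1.18, 1.20 and 1.17 in control and 0.799, 0.811 and 0.929 in Al. The thresholds are those of the study's methods, and adjusted P values run over all 12889 genes tested. Because the authors' values are not counts, a count model served only as an alternative, as limma voom on recovered reads. The procedure was tested on simulated data.

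Coordinates and coding sequences came from GENCODE M21 and start windows from RefSeq, both on GRCm38 and matched by symbol, and pseudogene copies from blastn 2.17.0. The members and lists were chosen with earlier results of these data known, and Rpl32l joined the paralogs after the table had been opened. Named genes are every paralog and its main gene, the P stalk, 5S and ubiquitin fusion proteins, Rps6, the 4 largest, 4 smallest and 4 most abundant members of each subunit, members not called or called against the ribosomal protein median, and in the other lists the 2 largest and 2 smallest called changes and every gene not called. Some genes that this rule names are not reported here. Rps15a, Rps20, Rps24, Rpl13a, Rpl21, Rpl34, Rpl38, Eef1a1, Eef2 and Pabpc1 were named after their values or sequences were seen. Alternatives covered the scaling, pseudocounts of 1 and 0.01, a filter of 1 FPKM, no filter, no trend, stricter thresholds, a replicate block and the removal of single libraries.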

Additional observations from a re-analysis of the deposited data

How the results depend on the processing

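The increase of the 78 core genes kept its direction with size factors, without members in the size factors, on deposited FPKM, on TPM, with pseudocounts of 1 and 0.01, other filters, no trend, voom and each library left out (83 members called in each of these 6). Quantile normalization left 25 members, 8 small and 13 large subunit genes called. Subunit medians, small and large, were 1.14 and 1.20 on deposited FPKM, 0.84 and 0.90 on TPM, and 0.38 and 0.39 after quantile normalization. At a log2 threshold of 1.5, 0 members lay above and 0 below the ribosomal protein median, which follows from the higher threshold. The small minus large difference turned to -0.03 as a ratio of summed FPKM. Without the 10 most abundant other genes the difference in share was 14.9 percentage points. Rpl32l against Rpl32 was -0.18 with a pseudocount of 1. With quantile normalization, an alternative for the pairs chosen after seeing the data, the paralog against its main gene was -0.44 for Rpl39l, 0.40 for Rpl7l1, 0.23 for Rps27l, -0.19 for Rpl22l1, 0.40 for Rpl36al and 1.91 for Rpl32l.

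Replicate numbers did not pair the libraries: the deviations of same-numbered libraries correlated at -0.0329, -0.0257 and -0.0733. With the replicate block 82 members were called higher (Rpl41 was lost), 16 TOP mRNAs, and 1 member above and 5 below the ribosomal protein median. The members below numbered 4 to 5 with single libraries left out.

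Of the TOP mRNAs, 7 were called higher on TPM, 3 after quantile normalization (1 lower) and 4 at a threshold of 1.5. Of the regulators, 2, 1, 5 and 1 were called higher on deposited FPKM, on TPM, after quantile normalization and at 1.5, and 5, 6 and 3 lower on deposited FPKM, TPM and quantile-normalized values. Leaving out single libraries gave 3 to 5 regulators higher and 0 to 1 lower, the latter without control 1, control 2 or Al 2. Of the chaperones, 1 was called higher on deposited FPKM, 1 on TPM and 1 at 1.5, and 4 and 6 lower on deposited FPKM and TPM.

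Some single genes changed sign. On deposited FPKM, TPM and quantile-normalized values, Rpl39l was at -0.05, -0.35 and -0.08, Vim at -0.12, -0.41 and -0.98, and Ipo7 at -0.40, -0.70 and -0.27. On deposited FPKM and TPM, Larp4 was at -0.02 and -0.32, Ltv1 at -0.35 and -0.65, Pdcd2l at -0.07 and -0.37, and Tsc2 at -0.10 and -0.39. On TPM alone, Eef1d was at -0.18, Eif3a at -0.07, Nap1l1 at -0.24, Rps6kb1 at -0.24, Rps6kb2 at -0.26 and Tsc1 at -0.19. Trp53 was at -0.23 on TPM and -0.02 after quantile normalization. After quantile normalization Rpl3 was at -0.17 and Rps23 at -0.004, and of the genes outside the naming rule Rpl13a was at -0.05, Eef1a1 at -0.11, Eef2 at -0.28 and Pabpc1 at -0.21. Rheb ranged from -0.20 to 0.04 with single libraries left out, the latter without the third control library. Of 1256 values of named genes under alternatives, 1137 kept direction and call, 60 lost the call, 31 gained one and 28 changed sign. The scaling shifts these values by construction, and no other cause was tested.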
